A study of Mus musculus with 8 samples.

Results

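The chemokines Cxcl9, Cxcl10 and Cxcl11, which share the receptor CXCR3, were examined in tumor endothelial cells from B16-F10 melanoma. They were chosen by symbol, and all 3 are among the 20057 genes of the deposited table. The tumors had been grown subcutaneously in male C57BL/6 mice, injected with 250000 B16-F10 cells at 8 weeks of age, without any engineered allele named for host or tumor. A total of 4 tumors had received the agonistic CD40 mAb FGK4.5 and 4 the rat IgG2a isotype control 2A3, as 2 peritumoral injections of 30 µg on days 13 and 16, and the labels place the sort on the day after the second injection. About 100000 live cells per tumor without the leukocyte marker CD45 and with the endothelial marker CD31 were collected, and the labels give each RNA library a mouse name of its own. The libraries carry the mouse names of the labels, which are 5N, 6L, 6R and 10N for agonistic CD40 mAb and 5L, 7N, 8N and 9L for isotype control. The names 5N and 5L, and 6L and 6R, share a number, and the labels do not say whether that marks a shared cage or animal, so that n counts libraries. The comparison asks how the message of the 3 ligands in these sorted cells differed between CD40-stimulating treatment and control.

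Chemokines are small secreted proteins that bind heparan sulfate on the vessel wall and steer leukocytes that carry the matching receptor. CXCR3 sits mainly on activated T cells and NK cells, and its ligands are classical targets of interferon (IFN) signaling. Cxcl9 is induced chiefly by IFN-γ, Cxcl10 also by type I IFN and by NF-κB, and Cxcl11 is the ligand with the highest affinity for CXCR3. C57BL/6 mice carry a null allele of Cxcl11, so that its message in this strain does not give a functional chemokine.

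The 3 genes lie side by side on the minus strand of chromosome 5 (GRCm38, the build called mm10, with GENCODE M21 annotation). Cxcl9 (ENSMUSG00000029417.9) covers chr5:92321347-92328079, Cxcl10 (ENSMUSG00000034855.13) chr5:92346638-92348889 and Cxcl11 (ENSMUSG00000060183.6) chr5:92359544-92365485. Cxcl9 and Cxcl10 are separated by 18558 bases and Cxcl10 and Cxcl11 by 10654, and the whole cluster spans 44139 bases. Cxcl9 and Cxcl10 are annotated as protein coding, and Cxcl11 as a polymorphic pseudogene. Art3, an ADP-ribosyltransferase gene on the plus strand, runs across both Cxcl10 and Cxcl11. It shares 133 exon bases with Cxcl10, 5.91% of the exon bases of that gene, and none with Cxcl11. The pseudogene Gm2673, also on the plus strand and without a row in the table, lies over 41.7% of the exon bases of Cxcl11. The library kit does not keep strand, so reads from these stretches cannot be assigned to one gene or the other. Sequence shared with transcripts of other genes on the same strand was rare, at 0.472% of the windows of 50 bases of Cxcl9, 0% of those of Cxcl10 and 0.237% of those of Cxcl11.

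The stretches of 250 bases before the start of Cxcl9 and Cxcl10 are shown because both genes rose and yet differ in the exact motif matches found there. They are RefSeq sequences of GRCm38.p6, printed on the minus strand from 5′ to 3′ up to the base before the start, from chr5:92328080-92328329 for Cxcl9 and chr5:92348890-92349139 for Cxcl10. No such entry was used for Cxcl11. Both strands were searched for the IFN-γ activated site TTCNNNGAA, for the IFN-stimulated response element written as GAAA, any 2 bases and GAAA, and for the NF-κB consensus. Capitals mark the matches.
Cxcl9: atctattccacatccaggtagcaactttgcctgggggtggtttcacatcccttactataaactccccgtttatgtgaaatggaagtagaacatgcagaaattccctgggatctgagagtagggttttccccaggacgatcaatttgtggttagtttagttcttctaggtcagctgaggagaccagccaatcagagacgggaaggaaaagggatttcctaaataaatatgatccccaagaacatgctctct
Cxcl10: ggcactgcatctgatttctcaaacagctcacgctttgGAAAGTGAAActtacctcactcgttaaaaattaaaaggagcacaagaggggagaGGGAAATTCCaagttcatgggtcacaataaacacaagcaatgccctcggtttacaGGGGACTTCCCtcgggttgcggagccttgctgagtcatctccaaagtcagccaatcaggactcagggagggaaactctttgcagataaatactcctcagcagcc
The Cxcl10 stretch holds GAAAGTGAAA, a match to the response element, from base -213 to -204 relative to the start. It holds the NF-κB match GGGAAATTCC from -159 to -150, and the overlapping matches GGGGACTTCC and GGGACTTCCC from -104 to -95 and from -103 to -94. The Cxcl9 stretch holds no exact match, but variants of these motifs and sites farther from the start were not searched. Among 32536 stretches of the same length before gene starts, 2.98% hold the response element, 7.28% the NF-κB consensus and 7.04% the IFN-γ activated site. A match is a run of letters and was not tested as a binding site here.

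Each of the 4 treated libraries held 12512772 to 64938728 reads on genes and each control library 2971689 to 35583141, a range of 21.9 times. Values are normalized reads, which are counts divided by a size factor for each library, and 1 read was worth between 0.118 normalized reads in 5N and 2.44 in 5L. The sort should leave few leukocytes, and the summed T and NK cell markers were between 0 and 14.4 normalized reads per library, with Cd3d at 0 in all 8, while the summed general leukocyte markers were between 73.3 and 198. Markers of melanoma cells, fibroblasts and mural cells were high in every library. They summed to between 35745 and 93734, between 88497 and 249098, and between 11329 and 36095. Endothelial markers summed to between 41722 and 67629, below the fibroblast sum in every library. Which of these cells the ligand reads came from was not tested. In bulk RNA of this kind, more cells that express a gene and more message per cell cannot be told apart.

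Cxcl9 was 4.10-fold, Cxcl10 2.68-fold and Cxcl11 6.28-fold higher with agonistic CD40 mAb than under isotype control. Each passed the threshold of the study, which asks for a 1.5-fold ratio of the means together with an unadjusted p no greater than 0.05, taken here from limma. Of the 12969 genes tested, 1.28% were higher and 0.239% lower by this rule, which are 166 and 31 genes. Without 5L they were 161 and 123. Cxcl9 and Cxcl10 exceeded the limit on low values, a group mean above 10 normalized reads, in both groups. Cxcl11 exceeded it in the agonistic CD40 mAb group alone, so that it entered the test only through the group in which it was higher. None of the 3 had an adjusted p under 0.05 in limma, where 2 of the genes tested did (0.0154%) and 261 had an unadjusted p of at most 0.05 (2.01%).

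**Figure D1:**
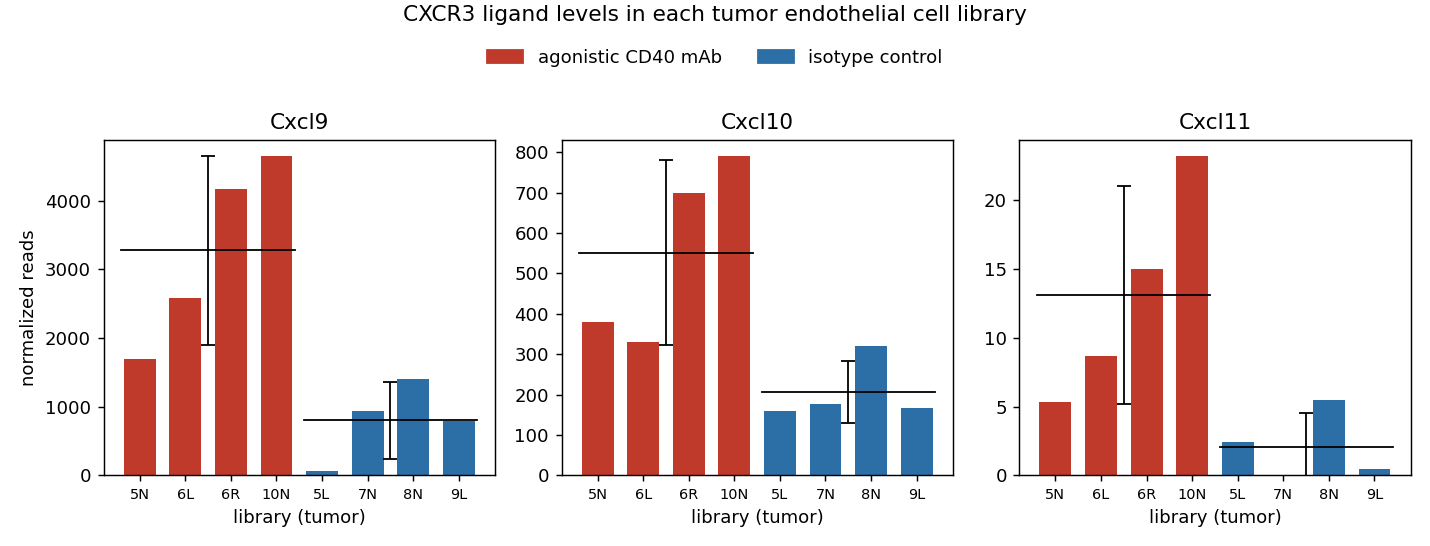
Normalized reads of Cxcl9, Cxcl10 and Cxcl11 in each of the 8 libraries, 1 bar per library on a linear axis from 0, with the group mean as a line and the SD as an error bar (n = 4). Every red bar of Cxcl9 and Cxcl10 stands above every blue bar, whereas for Cxcl11 the bar of 5N (5.30) stands just below that of 8N (5.44).

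Cxcl9, the ligand tied most closely to IFN-γ, was at 1699 normalized reads in 5N, 2576 in 6L, 4176 in 6R and 4656 in 10N. With isotype control it was at 63.5 in 5L, 933 in 7N, 1408 in 8N and 795 in 9L. The groups did not overlap, and the lowest library with agonistic CD40 mAb was 1.21 times the highest with isotype control. Library 5L stood far below the other controls, with 26 reads of Cxcl9 against 392 in 7N, which was sequenced to a similar depth. The means were 3277 ± 1377 and 799.7 ± 556 normalized reads (SD, n = 4 each). The log2 fold change was 2.58 (standard error 0.80, limma p = 0.00848, adjusted p = 1.00), and the exact permutation test over the 70 assignments gave p = 0.0286, the smallest this design allows. Without 5L it fell to 1.58 (standard error 0.31) and the ratio to 3.14, with a limma adjusted p of 0.143. In a linear model without moderation across genes Cxcl9 did not pass the threshold.

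Cxcl10, which recruits the same CXCR3-bearing cells, was at 381 normalized reads in 5N, 331 in 6L, 698 in 6R and 792 in 10N. With isotype control it was at 159 in 5L, 178 in 7N, 319.9 in 8N and 166 in 9L. The groups did not overlap, but 6L was only 1.04 times as high as 8N, the control that stood apart from the other 3. The means were 551 ± 229 and 206 ± 76.5 normalized reads (SD, n = 4 each), from 6636 and 1140 reads in all. The log2 fold change was 1.38 (standard error 0.31, limma p = 0.00108, adjusted p = 0.359), with p = 0.0286 in the exact permutation test. With DESeq2 on the recovered reads, the adjusted p of Cxcl10 was 0.00343, in a test where 0.493% of genes had an adjusted p under 0.05. As for Cxcl9, all 4 treated libraries lay above all 4 controls, which held for 1.09% of the genes tested. In library 5L, where Cxcl9 was scarce, Cxcl10 lay close to its level in 7N and 9L.

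Cxcl11 was at 5.30 normalized reads in 5N, 8.68 in 6L, 15.0 in 6R and 23.2 in 10N, from 45, 23, 25 and 40 reads. With isotype control it was at 2.44 in 5L, 0 in 7N, 5.44 in 8N and 0.433 in 9L, from 1, 0, 4 and 2 reads. The groups overlapped, as 5N lay just below 8N. The 0 in 7N allows up to 3 reads, or 7.14 normalized reads, so that the level there cannot be ranked against the other controls or against 5N. The means were 13.1 ± 7.89 and 2.08 ± 2.48 normalized reads (SD, n = 4 each), which rest on 133 and 7 reads. The log2 fold change of Cxcl11 was 2.39 (standard error 0.74, limma p = 0.00870, adjusted p = 1.00), and the exact permutation test gave p = 0.0571. Without 8N the ratio of means was 13.6, and with all libraries drawn down to the depth of 5L it no longer passed the threshold (log2 fold change 2.11). These limits from reads cover counting error only, since the libraries carry no molecular identifiers.

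**Figure D2:**
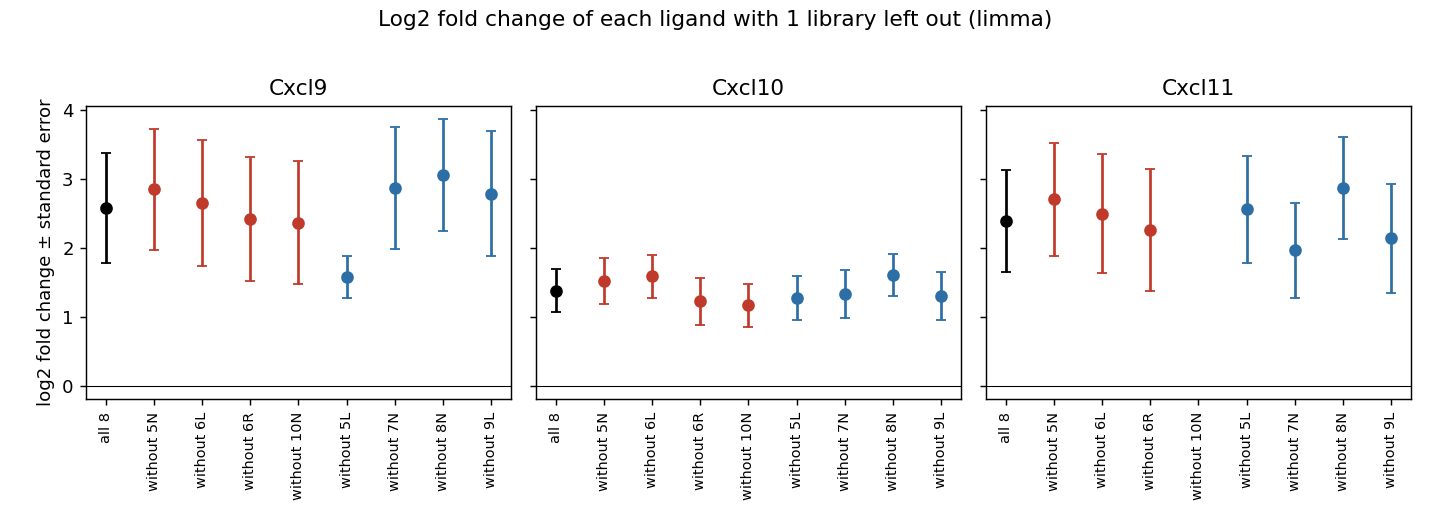
Log2 fold change and standard error (limma) of each ligand with all 8 libraries (black) and with 1 library left out (red for an agonistic CD40 mAb library, blue for an isotype control library). Cxcl9 falls from 2.58 to 1.58 without 5L while its error shrinks from 0.80 to 0.31, Cxcl10 stays between 1.17 and 1.61, and Cxcl11 has no point without 10N because its group mean then fell under the limit.

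The spread between tumors was wide in both groups. The coefficient of variation was 42.0% for Cxcl9, 41.5% for Cxcl10 and 60.4% for Cxcl11 with agonistic CD40 mAb, and 69.6%, 37.2% and 119% with isotype control. Cxcl9 and Cxcl11 were lowest in 5N, then 6L, then 6R, and highest in 10N, and so were Irf1 and Socs1, which belong to IFN-γ signaling. Irf8, also of that list, was lowest in 5N and highest in 10N, with 6R below 6L, and Jak1 of the same list had the reverse of the Cxcl9 order. Of the 9 tested genes of that list 2 had the order of Cxcl9 and 1 its reverse, against 5.11% and 4.99% of all genes tested. Cxcl10 shared this order except that 6L lay below 5N. Among the controls, Cxcl9 and Cxcl10 were both lowest in 5L and highest in 8N, with 9L below 7N. Library 8N was the highest control for Irf1 and Socs1 as well, whereas Irf8 was highest in 9L and lowest in 7N.

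Per kilobase of transcript, which allows levels of different genes to be compared, Cxcl9 was the most abundant of the 3. With agonistic CD40 mAb its level was 1134 ± 477 normalized reads per kb, against 407 ± 169 for Cxcl10 and 3.44 ± 2.08 for Cxcl11 (SD, n = 4). With isotype control the levels were 277 ± 193, 152 ± 56.6 and 0.548 ± 0.654 (SD, n = 4). In the treated group the ranges of Cxcl9 (588 to 1612) and Cxcl10 (245 to 585) just failed to overlap, and in the control group those of Cxcl9 (22.0 to 487) and Cxcl10 (117 to 236) overlapped. Cxcl11 lay below both in each of the 8 libraries. Among 12550 tested genes with a known length, the rank of Cxcl9 was 339 in the treated group and 1960 in the control group, that of Cxcl10 1223 and 3669, and that of Cxcl11 12219 and 12548.

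Of the summed level of the 3 ligands per kb, Cxcl9 made up 67.5% in 5N, 78.3% in 6L, 73.6% in 6R and 73.2% in 10N. In the controls it made up 71.0% in 7N, 67.2% in 8N and 69.2% in 9L, but 15.7% in 5L, where Cxcl10 made up 83.8%. Cxcl9 thus led in 7 of the 8 libraries and Cxcl10 in the remaining one. Cxcl11 made up at most 0.460% of the sum in any library.

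Whether the ligands moved by different amounts was tested on the log2 ratio of 2 ligands within each library, taken on normalized reads + 1. Library scaling cancels in such a ratio where both ligands are abundant, but not for Cxcl11, where the added 1 weighs on the value. The ratio of Cxcl9 over Cxcl10 was 2.15, 2.96, 2.58 and 2.55 in 5N, 6L, 6R and 10N, and -1.31, 2.38, 2.13 and 2.26 in 5L, 7N, 8N and 9L. The mean log2 ratio was 2.56 ± 0.33 in the treated group and 1.37 ± 1.79 in the control group (SD, n = 4), a difference of 1.20 (exact permutation test, p = 0.0857, adjusted p = 0.171 over the 3 pairs). Without 5L the difference was 0.30. For Cxcl11 over Cxcl10 the difference was 1.01 (exact permutation test, p = 0.114, adjusted p = 0.171), and for Cxcl9 over Cxcl11 it was 0.19 (exact permutation test, p = 0.914, adjusted p = 0.914). Both comparisons with Cxcl11, which has 7 control reads, changed direction with the pseudocount, which was 1 for the values above. Cxcl9 over Cxcl11 gave -1.03 with a pseudocount of 0.1, 1.63 with 10 (exact permutation test, p = 0.0286) and -0.98 without 5L, and Cxcl11 over Cxcl10 gave 2.23 with 0.1 and -0.45 with 10. The direction of a difference from Cxcl11 was therefore not settled, and a p above the threshold does not show that the 3 changed alike.

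**Figure D3:**
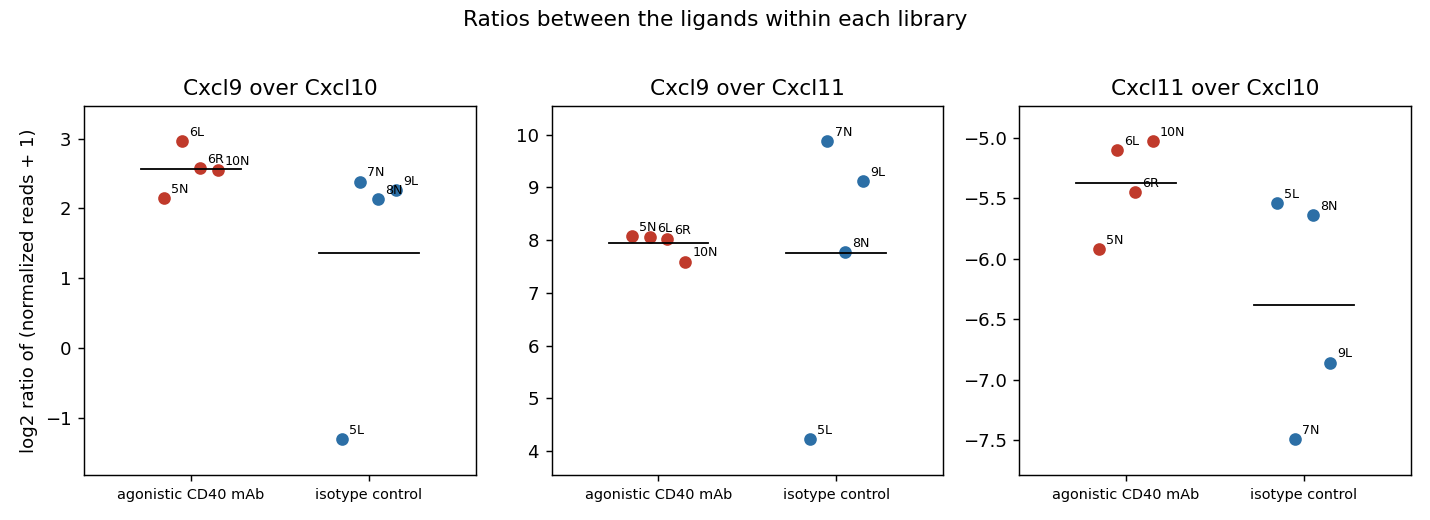
Log2 ratio of the normalized reads + 1 of each pair of ligands within a library, with 1 point per library and the group mean as a line. The ratio of Cxcl9 over Cxcl10 lies between 2.13 and 2.96 in 7 libraries and at -1.31 in 5L, and the ratios with Cxcl11 scatter in the control group, where it rests on 0 to 4 reads per library.

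The other genes were read from lists around the ligands. The receptor list held 4 genes, none of which passed the threshold, with a median log2 fold change of 0.03, against 0.00 over all genes tested. Cxcr3 was at 10.1, 9.05, 8.42 and 13.9 normalized reads in 5N, 6L, 6R and 10N, and at 14.7, 19.0, 9.53 and 3.68 in 5L, 7N, 8N and 9L. These values rest on 148 and 38 reads in all, the groups overlapped, and the log2 fold change was 0.01 (standard error 0.51). Ackr3, a scavenger of Cxcl11 and Cxcl12, was at 1114 ± 179 and 1085 ± 283 normalized reads (SD, n = 4). Ackr1, which binds chemokines on venules, was at 113 ± 29.2 and 88.1 ± 22.5, and Dpp4, a protease that truncates CXCR3 ligands, at 69.1 ± 41.1 and 89.9 ± 48.4 (SD, n = 4).

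The list of IFN-γ signaling held 10 genes, of which 9 were tested, 3 were higher past the threshold and none lower (1.28% and 0.239% of all genes tested), with a median log2 fold change of 0.12. Those 3 were among the genes already known to be higher in these libraries. Irf1, a transcription factor induced by IFN-γ that acts at chemokine promoters, was 1.99-fold higher (1034 ± 232 against 521 ± 178 normalized reads, SD, n = 4, limma adjusted p = 0.460), and Irf8, a related factor, 1.70-fold higher (562 ± 131 against 331 ± 69.1, limma adjusted p = 0.599), each with every treated library above every control, as in 1.09% of all genes tested. Socs1, the feedback inhibitor of the pathway, was 2.84-fold higher past the threshold (limma adjusted p = 1.00), but its groups overlapped (exact permutation test, p = 0.0857), and it did not pass without 5L, 10N, 6L, 6R or 7N. Its means were 23.7 ± 15.0 and 8.35 ± 5.58 normalized reads (SD, n = 4), so that, like Cxcl11, it entered the test only through the group in which it was higher. Jak1 and Jak2, the kinases at the receptor, had the largest means of these 9 genes, with log2 fold changes near 0 (0.03 and 0.12). Ifng itself had 0 reads in all 8 libraries, which allows up to 0.353 normalized reads in 5N and up to 7.33 in 5L.

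Of 10 genes of type I IFN signaling, 9 were tested, and 1 was higher past the threshold (1.28% of all genes tested), with a median log2 fold change of 0.23. Irf7, which amplifies type I IFN production, was 1.72-fold higher past the threshold, but its groups overlapped (exact permutation test, p = 0.143), and it did not pass without 5L, 7N, 6L, 6R or 10N. Stat2, a transcription factor of this pathway, had a log2 fold change of 0.52 (standard error 0.20) at a ratio of 1.39, under the limit, and passed without 9L at a ratio of 1.52. The receptor gene Ifnar1 was at 1173 ± 90.6 and 1234 ± 93.8 normalized reads (SD, n = 4), and Ifnb1 was covered by 8 reads in the treated group and 0 in the control group.

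Of 15 genes of TNF and NF-κB signaling, all tested, none passed in either direction, and the median log2 fold change was 0.12. Tnf was at 20.5 ± 6.78 and 11.5 ± 10.3 normalized reads (SD, n = 4), a log2 fold change of 1.23 with a standard error of 0.68 (exact permutation test, p = 0.171), and it passed when 7N or 9L was left out, at ratios of 2.50 and 2.32. Cd40, the target of the antibody, was at 56.1 ± 10.2 and 47.7 ± 26.2 (SD, n = 4). Tnfrsf1a, a TNF receptor, and Nfkbia, the NF-κB inhibitor, were the most abundant of these genes and changed by 0.09 and 0.29 on the log2 scale.

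Of 18 genes of heparan sulfate, the sugar that holds chemokines on endothelium, none passed, and the median log2 fold change was 0.12. Hspg2, which encodes the core protein perlecan, was at 17209.8 ± 5079.9 and 15936 ± 4738 normalized reads (SD, n = 4), and Sdc3, a syndecan, at 1675 ± 256 and 1501 ± 257.

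**Figure D4:**
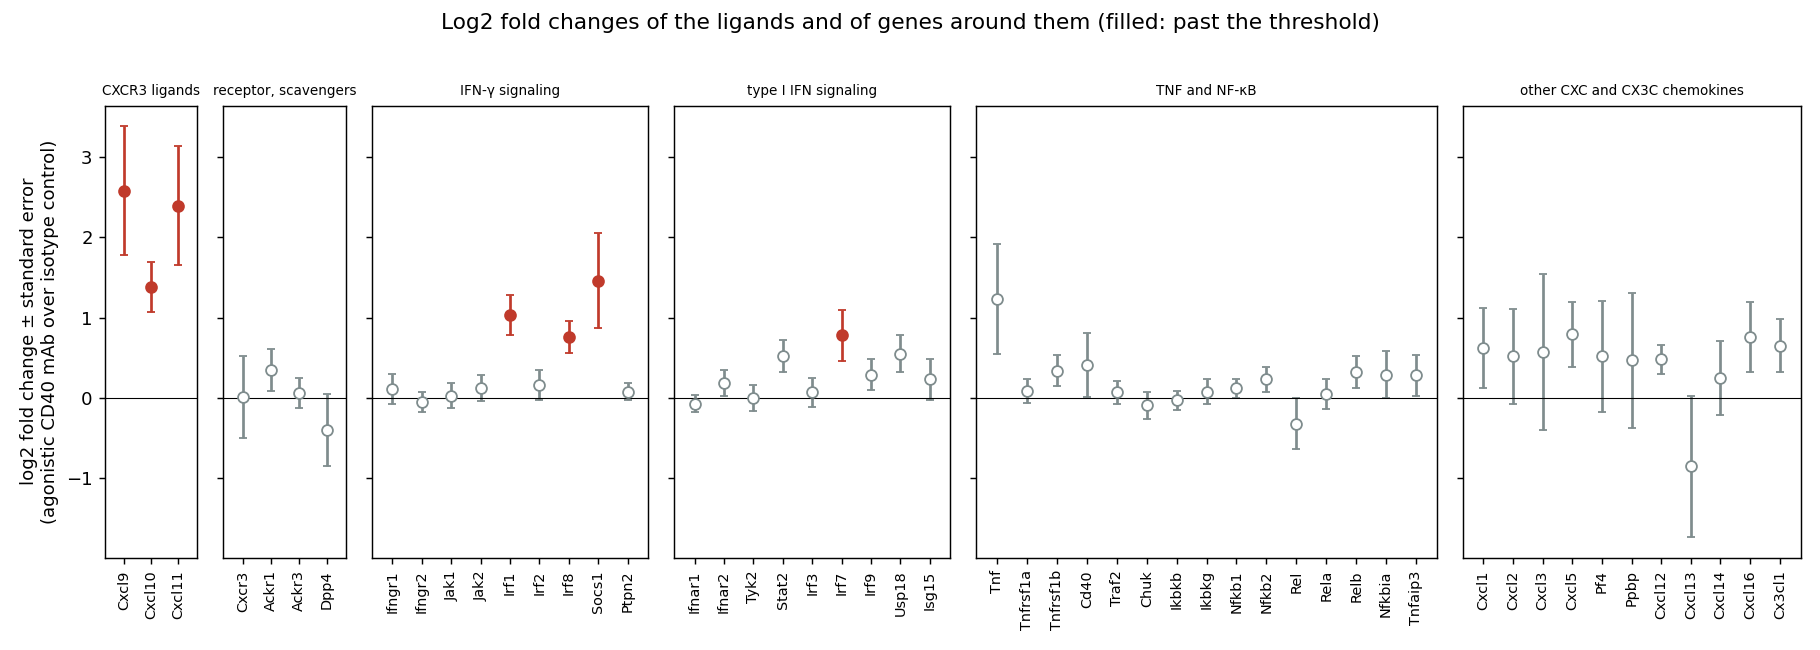
Log2 fold change (agonistic CD40 mAb over isotype control) and standard error from limma of the ligands and of the tested genes of 5 lists around them, filled where the threshold was passed and open elsewhere. The ligands lie between 1.38 and 2.58, and the other filled points, Socs1, Irf1, Irf7 and Irf8, between 0.76 and 1.46.

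Of 13 other CXC and CX3C chemokines, 11 were tested and none passed, with a median log2 fold change of 0.52. Cxcl12, the ligand of Cxcr4 and the most abundant of them by normalized reads, was at 3953 ± 979 and 2804 ± 394 (SD, n = 4), a ratio of 1.41 (exact permutation test, p = 0.0571), and it passed when 6L was left out, at a ratio of 1.51. Cxcl14 and Cxcl1, the next most abundant, had log2 fold changes of 0.25 and 0.62. Without 7N, Cxcl1 and Cx3cl1 passed, at ratios of 1.84 and 1.61. By level per kb, the group mean of Cxcl9 held rank 1 of the 16 chemokines with agonistic CD40 mAb, above Cxcl1 at 712 and Cxcl12 at 702, and rank 4 with isotype control, below Cxcl1, Cxcl12 and Cxcl14. The ranges over the treated libraries overlapped, at 588 to 1612 for Cxcl9, 609.9 to 818 for Cxcl1 and 558 to 954 for Cxcl12, and in 5N Cxcl9 lay below both Cxcl1 and Cxcl12. Cxcl10 held rank 5 and rank 7, and Cxcl11 rank 14 in both groups.

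Of 9 genes next to the cluster on chromosome 5, 7 were tested and none passed the threshold, with a median log2 fold change of 0.04. Art3, which runs across Cxcl10, was at 251, 401, 354 and 294 normalized reads in 5N, 6L, 6R and 10N and at 125, 359, 324 and 294 in 5L, 7N, 8N and 9L. Its groups overlapped, and its log2 fold change was 0.32 (standard error 0.30). Scarb2 and Sdad1, the most abundant neighbours, had log2 fold changes of 0.04 and 0.02.

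The genes with profiles most like each ligand were ranked by the root mean square difference of centred log2 values over the 8 libraries, which is a description and carries no test. The difference between the groups is part of these profiles. For Cxcl9 they were Gbp5 (0.374), Gm4841 (0.438), Apol6 (0.470), Gbp2 (0.591) and Gbp6 (0.602), against a median of 1.83 over all genes. For Cxcl10 they were Irf1 (0.385), Irgm1 (0.406), Zbp1 (0.436), Irgm2 (0.444) and Psmb9 (0.458), against 0.88. For Cxcl11 they were Slamf8 (0.626), Apol7c (0.715), Irf4 (0.760), H2-Q7 (0.774) and H2-Eb1 (0.800), against 1.52, with Cxcl10 at rank 6. Cxcl10 was at rank 160 for Cxcl9, but Cxcl9 was at rank 12590 for Cxcl10 and at rank 7394 for Cxcl11. With profiles centred within each group, which removes the difference between the groups, the lists changed. They were then Sfmbt2, 4930481A15Rik, Gbp5, 2810410L24Rik and Apol6 for Cxcl9, Kif9, Gbp10, Amdhd1, Sec14l2 and Tspyl4 for Cxcl10, and Cenpm, Gpr37, Pla2g3, Tfeb and Card14 for Cxcl11, and Cxcl10 was at rank 1591 for Cxcl9 and at rank 141 for Cxcl11. In the same profiles Cxcl9 was at rank 12737 for Cxcl10 and 12764 for Cxcl11, and Cxcl11 at rank 11999 for Cxcl9 and 10055 for Cxcl10. Over the 7 libraries without 5L, Cxcl10 was at rank 7 for Cxcl9 and Cxcl9 at rank 6 for Cxcl10. Cxcl11 was then at rank 569 for Cxcl9 and 7097 for Cxcl10, whereas for Cxcl11 itself Cxcl9 was at rank 13 and Cxcl10 at rank 26. The genes most like Cxcl9 without 5L were Gbp2, Iigp1, Gm12250, Gbp6 and Gbp5.

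Several markers of other cells stood beside these values, and their part in the ligand results was not tested. General leukocyte markers summed to between 81.9 and 173 with agonistic CD40 mAb and between 73.3 and 198 with isotype control (exact permutation test, p = 0.771). Of that list Ptprc, which encodes the CD45 used in the sort, was at 5.77, 1.51, 21.1 and 11.6 normalized reads in 5N, 6L, 6R and 10N, and at 0, 2.38, 2.72 and 4.98 in 5L, 7N, 8N and 9L. The ratio of its means was 3.96, from 108 and 26 reads, its groups overlapped, and its level lay under the limit for the test. The T and NK cell markers summed to 9.30, 4.15, 14.4 and 4.65 normalized reads in 5N, 6L, 6R and 10N, and to 0, 7.14, 4.08 and 5.42 in 5L, 7N, 8N and 9L (exact permutation test, p = 0.229). Within that list Prf1, Cd8a, Cd3e and Gzmb, genes of cytotoxic and other T cells, had 42, 14, 8 and 6 reads with agonistic CD40 mAb and 0 in each control, and Cd8b1, Ncr1 and Nkg7 had 2, 2 and 1 against 0. Prf1 was at 3.89 normalized reads in 5N, at 2.26 in 6L, lower in 6R and at 0 in 10N, and a 0 among the controls allows up to 0.650 in 9L and 4.08 to 7.33 in the other controls. Cd4, Klrb1c and Cd3g were covered by 8, 39 and 0 reads with agonistic CD40 mAb and by 17, 13 and 1 in the controls. All these read counts are pooled over libraries of unlike depth. Macrophage and monocyte markers summed to between 380.2 and 614 with agonistic CD40 mAb and between 248 and 567 with isotype control (exact permutation test, p = 0.229). Of 11 tested genes of that list only Mrc1 was higher past the threshold (1.28% of all genes tested), at a ratio of 1.74. Every treated library lay above every control for Mrc1, as in 1.09% of all genes tested (exact permutation test, p = 0.0286). Of these 11 genes, 8 had a log2 fold change above 0, and the largest was that of Itgam, at a ratio of 2.03 with overlapping groups. With agonistic CD40 mAb, 5N had the lowest macrophage sum (380.2) and the lowest Cxcl9 and Cxcl11. With isotype control, 8N had the lowest sum (248) and the highest Cxcl9 and Cxcl10. Dendritic cell markers ranged from 276 to 406 and from 215 to 349.5, with Cd209a at 0 throughout. Most of these sums came from Zbtb46, with means of 216 and 212, and Clec9a, with means of 99.4 and 76.7. These were the only 2 of the 8 genes high enough for the test, so the sum cannot be read as a measure of dendritic cells. Library 5L had the highest melanoma sum, 93734 against 35745 to 60849.7 in the other 7, and the lowest sums of fibroblast, mural and dendritic cell markers. It also had the lowest sums of general leukocyte (73.3), T and NK cell (0) and lymphatic endothelial markers (1967). Its macrophage sum (301) lay above that of 8N, and its endothelial sum (41725) lay next to the lowest, that of 7N (41722).

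Since the endothelial sum also varied, the ligands were divided by it in each library, an alternative chosen after seeing the data. The ratio of group means was then 4.03 for Cxcl9 (exact permutation test, p = 0.0286), 2.58 for Cxcl10 (exact permutation test, p = 0.0571) and 6.36 for Cxcl11 (exact permutation test, p = 0.0571). Their log2 fold changes were 2.41, 1.21 and 2.31, each past the threshold in limma.

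**Figure D5:**
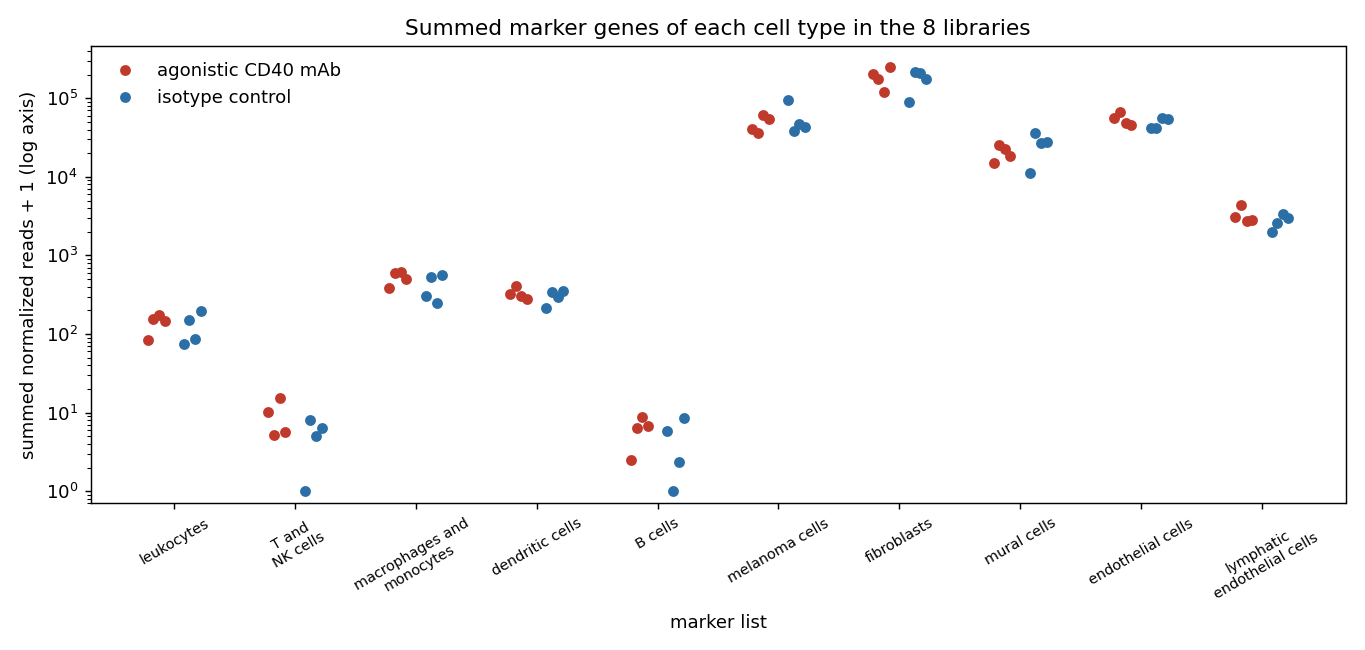
Summed normalized reads + 1 of the markers of each cell type, on a log axis, with 1 point per library (red agonistic CD40 mAb, blue isotype control). The groups overlap for every list, T and NK cell and B cell sums stay at or below 14.4, and the highest melanoma point, at 93734, is control 5L.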

How the data were processed

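RNA-seq was done on sorted CD45-CD31+ cells of 8 B16-F10 tumors. The signal values deposited by the authors are gene counts divided by DESeq2 size factors. Per the submitters' notes and the methods of the study, reads from CASAVA 1.8 were aligned to mm10 with TopHat2 and Bowtie2 2.2.1 and assigned to genes in Partek 6.6, from TruSeq libraries that do not keep strand. The methods also name a floor at 1, removal of low genes and an adjustment for harvest day, of which these values show no trace, since 99.9% of them lie within 0.1 read of a whole number of reads. The labels give 1 time of harvest for all libraries, while the methods name harvest on more than 1 day. The day of single libraries is not given in the sources used here, so harvest day was not a term and its part in the results was not tested. The whole reads were recovered from these steps. Macrophage libraries were not used here.

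Groups follow the treatment in the labels. The test was limma 3.58.1 in R 4.3.3 on log2(value + 1) (variance trend, treatment as the only term) for the 12969 of 20057 genes with a larger group mean above 10. Adjusted p follows Benjamini and Hochberg over these genes. Log2 fold changes on this scale understate changes of weakly expressed genes. Ratios are of group means. Single values were compared by two-sided exact permutation tests over 70 assignments. Among replicates no pair of libraries agreed within sampling noise. The fit was run on simulated counts with the same dispersion for every gene and no outlying library. It therefore does not show how the fit behaves for genes as variable as the ligands.

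Alternatives were pseudocounts of 0.1 and 10, other limits on low values, quantile normalization, limma without trend, a linear model without moderation, edgeR 4.0.16 and DESeq2 1.42.0 on recovered reads, drawing reads down to the shallowest library (median of 20 draws), each library left out, and, chosen after seeing the data, division by the sum of the endothelial markers.

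The 3 members and all lists were chosen with earlier results of these data known. Of each list, genes past the threshold, the 2 or more with the largest means and those a result turns on are named, as are the 5 genes with the profile most like each ligand. A gene that meets these rules is not reported here, and list counts and likeness ranks leave it out. Positions and transcript lengths come from GENCODE M21, and promoter sequences from RefSeq.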

Additional observations from a re-analysis of the deposited data

Results flagged for a closer look

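Of 88 groups of 4 libraries compared, 9 (10.2%) held 1 value far from the other 3, by a gap to the nearest value, relative to the group's range, above Dixon's 95% limit. Chance alone gives this in about 1 in 20 groups, and many of these groups share libraries or genes. Of the 9, 5 were in library 5L. Its log2 ratio of Cxcl9 over Cxcl10 was -1.31 (gap 0.933 of the range), and the Cxcl9 and Cxcl10 shares of the 3 ligands per kb were 15.7% (0.931) and 83.8% (0.934), which are 3 views of the same low Cxcl9 value. The melanoma markers summed to 93734 in 5L (0.836), and Sdc3 was at 1117 normalized reads there (0.917). Library 8N supplied another 2, Cxcl10 at 319.9 normalized reads (0.878) and Ifnar1 at 1373 (0.848). With agonistic CD40 mAb, the log2 ratio of Cxcl9 over Cxcl11 was 7.59 in 10N (0.895), and Cx3cl1 was at 214 normalized reads in 5N (0.896).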

How the results depend on the processing

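No paired analysis was possible because the labels give no replicate numbers, and the mouse names of the groups share only 1 number (5N and 5L). Cxcl10 passed limma's threshold in each of 11 other settings and each of 8 fits without 1 library (log2 fold change 1.17 to 1.61). Cxcl9 did so in 10 of 11 settings and in all 8 such fits (1.58 to 3.06, the lowest without 5L), but not without moderation (2.58). Cxcl11 did so in 9 of 10 settings and in 7 fits (1.97 to 2.87), but not with reads drawn down to the shallowest library (2.11). It had no fit without 10N or with a limit of 50, and its log2 fold change ran from 0.89 with a pseudocount of 10 to 3.61 with 0.1. Adjusted p ran from 0.143 to 1.00 for Cxcl9, from 0.00343 to 1.00 for Cxcl10 and from 0.358 to 1.00 for Cxcl11. The ratios of group means without 1 library were 3.14 to 5.49, 2.28 to 3.28 and 4.65 to 13.6, where the exact permutation test cannot go below 0.0286. With 3 controls its p for Cxcl9 was 0.0571, and for Cxcl10 0.0857 to 0.114. Scaled to endothelial markers, the Cxcl10 ratio was 2.58 (exact p = 0.0571), and after quantile normalization the Cxcl11 ratio was 6.04 (exact p = 0.0286).

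The difference in the log2 ratio of Cxcl9 over Cxcl10 was 0.30 to 1.53 without 1 library. For Cxcl9 over Cxcl11 it was -0.98 (without 5L) to 0.90, reversed to -1.03 with a pseudocount of 0.1, and was 1.63 with 10 (exact p = 0.0286). For Cxcl11 over Cxcl10 it was 0.64 to 1.29, and -0.45 with a pseudocount of 10. Cxcl11 rests on 0 to 4 reads per control library, where 1 read is worth 0.217 to 2.44 normalized reads.

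In the 7 lists, 4 genes were higher and 0 lower. Without a filter and without moderation 2 were higher, and without 1 library 2 to 6 higher and 0 to 1 lower (Stbd1 without 5L). Irf1 and Irf8 passed in every setting. Below the threshold, log2 fold changes changed sign for several genes. Scaled to endothelial markers they were -0.15 for Cxcr3, -0.11 for Ackr3, -0.14 for Jak1, -0.05 for Jak2, -0.07 for Tnfrsf1a, -0.05 for Hspg2, -0.00 for Sdc3, -0.13 for Scarb2 and -0.14 for Sdad1. That of Cxcr3 was also -0.04 with a pseudocount of 10, -0.05 after quantile normalization and -0.01 in DESeq2. Without 1 library the ranges were -0.41 to 0.29 for Cxcr3, -0.11 to 0.21 for Ackr3, -0.11 to 0.13 for Jak1, -0.02 to 0.21 for Jak2, -0.04 to 0.16 for Tnfrsf1a, -0.04 to 0.45 for Nfkbia, -0.11 to 0.25 for Hspg2, -0.21 to 0.62 for Cxcl14, -0.02 to 0.48 for Art3, -0.07 to 0.20 for Scarb2 and -0.02 to 0.08 for Sdad1. Over all genes, 166 were higher and 31 lower. They were 297 and 88 without a filter, 117 and 13 with a limit of 50, 184 and 57 without trend, 150 and 47 in edgeR, 161 and 58 in DESeq2, 173 and 47 drawn down, 120 and 54 scaled to endothelial markers and, without 1 library, 124 to 234 and 27 to 123 (the last without 5L, and 52 without 9L). DESeq2 gave 64 genes an adjusted p under 0.05, against 2 in limma. The cause of these shifts was not tested.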
